A study of Drosophila melanogaster with 2 samples.

Results

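The mitochondrial ribosomal protein genes of Drosophila melanogaster were taken as the protein-coding genes of the Ensembl BDGP6 annotation whose symbol starts with mRpL or mRpS. They number 73 of 13968 protein-coding genes on the chromosome arms, with 47 mRpL and 26 mRpS genes. Binding was measured by chromatin immunoprecipitation and sequencing (ChIP-seq) in whole embryos aged 0 to 24 h that carried a tagged copy of the gene Big brother (Bgb-eGFP, a fusion to green fluorescent protein). Bgb is the fly counterpart of CBF-beta, which partners the DNA-binding Runt domain proteins. The data are 2 biological replicates of 1 group, without a contrasting condition. No control library was analysed here. The labels name a GFP antibody in their free text and Bgb in the antibody entry, and they do not say what drives the transgene. The tissue is the whole animal, so a peak cannot be placed in a cell type. A gene was counted as having a peak when a summit of the conservative list lay 1000 bp or less from one of its transcription start sites (TSS). That list holds 4488 peaks kept by the authors for their agreement between replicates, measured as the irreproducible discovery rate (IDR). It is used throughout unless another is named. The signal of a peak is the authors' own value and was compared within 1 list. Read depth is unknown, so the 95% intervals below (exact binomial, Clopper-Pearson) cover the counting of genes or summits only. With 1 group there was no difference between conditions to test, and counts are set beside the same counts over all protein-coding genes.

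Mitochondrial ribosomes translate the few messenger RNAs of the mitochondrial genome, which encode subunits of the respiratory chain and of ATP synthase. All of their proteins described here are encoded in the nucleus, made in the cytosol and imported. Many descend from bacterial ribosomal proteins, while others are found only in mitochondrial ribosomes. The genes are used in nearly every tissue, and fly promoters of such genes often carry the sequences bound by BEAF-32, DREF or M1BP. BEAF-32 is an insulator protein, DREF activates genes of replication and growth, and M1BP binds the core promoter sequence known as motif 1.

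The sequences below are centred on the strongest summit of each gene and run 50 bases to either side, read 5′ to 3′ on the strand of the gene, from the RefSeq copy of the dm6 assembly. The first 7 belong to 7 of the 9 genes with the strongest peaks and show how they vary. Next come mRpL20 and 2 small subunit genes that hold the DREF sequence, then mRpL22 with the M1BP sequence. The last, mRpL47, lies at a strong summit that is in the ranked list only. Capitals mark CGATAA or CGATAG (BEAF-32), TATCGATA (DREF) and GGTCACAC (M1BP) on either strand. The first 2 sets overlap, since TATCGATA followed by A or G holds both.
mRpL4 (chr2L:16329126-16329226, minus strand): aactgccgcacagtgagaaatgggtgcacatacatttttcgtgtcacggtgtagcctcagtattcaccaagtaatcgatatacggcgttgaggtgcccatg
mRpL33 (chrX:4322512-4322612, minus strand): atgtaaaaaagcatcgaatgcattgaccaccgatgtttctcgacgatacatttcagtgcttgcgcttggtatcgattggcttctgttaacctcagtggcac
mRpL17 (chr3L:264377-264477, plus strand): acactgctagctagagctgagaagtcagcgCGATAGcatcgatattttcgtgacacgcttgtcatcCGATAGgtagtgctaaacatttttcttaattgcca
mRpL3 (chrX:15761191-15761291, plus strand): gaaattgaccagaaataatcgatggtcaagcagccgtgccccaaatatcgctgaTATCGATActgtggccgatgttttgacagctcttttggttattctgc
mRpL10 (chr2L:203699-203799, plus strand): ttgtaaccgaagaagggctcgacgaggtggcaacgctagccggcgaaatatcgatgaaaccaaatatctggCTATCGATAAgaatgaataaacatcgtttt
mRpL30 (chrX:4647814-4647914, plus strand): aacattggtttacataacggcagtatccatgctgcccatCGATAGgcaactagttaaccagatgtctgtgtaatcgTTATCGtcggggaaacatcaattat
mRpL39 (chr3L:14999718-14999818, minus strand): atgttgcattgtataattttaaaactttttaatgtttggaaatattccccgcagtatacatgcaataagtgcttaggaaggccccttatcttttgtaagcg
mRpL20 (chr3L:13017854-13017954, minus strand): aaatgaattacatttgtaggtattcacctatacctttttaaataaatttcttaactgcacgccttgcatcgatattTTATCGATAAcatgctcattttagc
mRpS18B (chr2L:20097198-20097298, minus strand): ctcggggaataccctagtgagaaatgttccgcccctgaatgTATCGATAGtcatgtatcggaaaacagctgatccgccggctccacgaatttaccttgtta
mRpS23 (chr2L:13835072-13835172, minus strand): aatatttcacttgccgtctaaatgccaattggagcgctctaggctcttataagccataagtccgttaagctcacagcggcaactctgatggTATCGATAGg
mRpL22 (chrX:16783922-16784022, plus strand): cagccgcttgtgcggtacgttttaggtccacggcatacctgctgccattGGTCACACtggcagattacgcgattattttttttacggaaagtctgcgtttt
mRpL47 (chr3R:9515911-9516011, minus strand): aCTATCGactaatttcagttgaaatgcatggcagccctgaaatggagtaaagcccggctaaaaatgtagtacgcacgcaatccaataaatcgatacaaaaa
Among the first 7, mRpL17 held CGATAG at 2 places, mRpL10 and mRpL30 held the BEAF-32 sequence too, and mRpL3 held TATCGATA without it. The windows of mRpL4, mRpL33 and mRpL39 held none of the marked sequences. The shorter CGATA occurred 1 time in the window of mRpL4, 2 times in that of mRpL33 and 0 times in that of mRpL39.

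A Bgb-eGFP summit lay within 1000 bp of a TSS at 40 of 73 genes (54.8%, 42.7 to 66.5), beside 33.6% of all protein-coding genes (4688 of 13968). The count depends on the distance allowed. Within 250 bp a summit was found at 32 of 73 (43.8%), beside 27% of all protein-coding genes. By subunit the count within 1000 bp was 28 of 47 mRpL genes (59.6%, 44.3 to 73.6) and 12 of 26 mRpS genes (46.2%, 26.6 to 66.6). These intervals overlap widely. Symbols follow older names, and the human counterparts of mRpS18A and mRpS30 sit in the large subunit. Genes with a bacterial homolog had a peak in 25 of 45 cases (55.6%, 40 to 70.4) and genes specific to mitochondrial ribosomes in 15 of 28 (53.6%, 33.9 to 72.5). These shares are close, and their intervals overlap over most of their length. For comparison, 65 of 92 cytosolic ribosomal protein genes had a peak (70.7%, 60.2 to 79.7) and 38 of 88 nuclear genes of oxidative phosphorylation (43.2%, 32.7 to 54.2). The share of the mitochondrial ribosomal genes lay between these 2, with an interval that overlaps both.

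**Figure D1:**
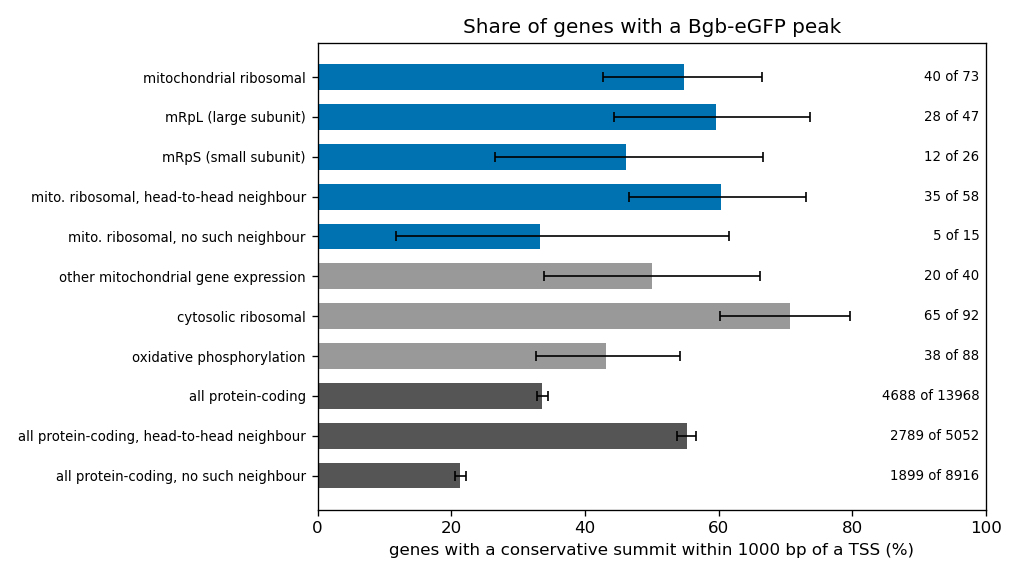
Share of genes with a conservative summit within 1000 bp of a TSS, in percent, with exact 95% binomial intervals as error bars and the counts at the right. The mitochondrial ribosomal protein genes (blue) stand at 54.8%, above the 33.6% of all protein-coding genes, while among genes with a head-to-head neighbour they stand at 60.3%, beside 55.2% of all such genes.

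The genes are arranged differently from most others. A head-to-head neighbour is a protein-coding gene on the other strand whose TSS lies upstream, 1000 bp or less away, so that a single summit can fall in the windows of both genes. Such a neighbour was found for 58 of 73 mitochondrial ribosomal protein genes (79.5%) and for 5052 of all 13968 genes (36.2%). The median spacing in the 58 was 283 bp. Among genes with such a neighbour, 35 of 58 had a peak (60.3%, 46.6 to 73.0), beside 55.2% of all protein-coding genes with one. Among genes without, 5 of 15 had a peak (33.3%, 11.8 to 61.6), beside 21.3%. If each of these 2 classes had the share of all genes of its class, 35.2 of the 73 genes would have a peak (48.2%), against the 40 counted. Within each class the share of all genes lies inside the interval of the mitochondrial ribosomal genes.

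Crediting each summit only to the gene with the nearest TSS gave a lower share. By that count 25 of 73 genes had a peak (34.2%), beside 24.6% of all protein-coding genes. With a head-to-head neighbour the count was 20 of 58 (34.5%), beside 32.1%, and without one it was 5 of 15 (33.3%), beside 20.4%. The shares of all genes in the 2 classes would give 21.7 of 73 (29.7%). In the comparison groups, the nearest TSS credited 53 of 92 cytosolic ribosomal protein genes (57.6%) and 27 of 88 oxidative phosphorylation genes (30.7%). By this count the share of the mitochondrial ribosomal genes was closer to the second group.

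The strength of the peaks was ordinary for promoter peaks. The strongest summit of each of the 40 genes had a median signal of 173 (interquartile range 110.2 to 266), beside 183 (114 to 321) over all 4688 genes with a peak. The highest was 1027 and the lowest 70.1. Signals above 500 were found at 4 genes, and 6 genes had a summit in the strongest 10% of the list. Neither count was made over all genes with a peak. The mRpL genes had a median of 167 and a maximum of 1027, and the mRpS genes had a median of 173 and a maximum of 273. The 9 strongest peaks were all at mRpL genes.

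mRpL4 (FBgn0001995), whose product lines the exit tunnel for the new peptide, had the strongest peak. It lies on chromosome 2L from 16328990 to 16329337, with a signal of 1027 (662 in replicate 1 and 366 in replicate 2), and ranked 51 of 4488. Its summit was 44 bp upstream of the TSS of mRpL4, which is also the nearest TSS, while the head-to-head neighbour CG4440 starts 793 bp away. mRpL33 had a signal of 793 (466 and 312) and mRpL17 one of 783 (446 and 339.5). In both, the summit sat at the start of the neighbour: that of mRpL33 was 331 bp from its own TSS and 64 bp from that of norpA, the phospholipase C of phototransduction. That of mRpL17 was 352 bp from its own TSS and 47 bp from that of Tudor-SN, a nuclease-domain protein that binds RNA.

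mRpL53, specific to mitochondrial ribosomes, had 578 (378 and 191), with the summit 29 bp upstream of its TSS and equally far from that of CG33155. mRpL3, whose product reaches toward the peptidyl transferase centre, had 459 (281 and 177), 7 bp upstream. mRpL10, which anchors the stalk that recruits translation factors, had 451 (264 and 193), 30 bp upstream, and has no head-to-head neighbour. These 3 summits lay at the gene's own start. mRpL42 had 385 (201 and 173), 19 bp upstream, and mRpL30 had 374 (258 and 122), 7 bp upstream. mRpL39, specific to mitochondrial ribosomes, had 314 (189 and 103), 102 bp upstream. Among small subunit genes the strongest were mRpS17 with 273 (153 and 139) and mRpS29 with 264 (147 and 111). The product of mRpS29 is a GTP-binding protein known in mammals as DAP3. mRpL55 also had 264 (169.8 and 89.8), but its summit was 589 bp downstream of its TSS and 46 bp from that of cdi, a protein kinase.

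**Figure D2:**
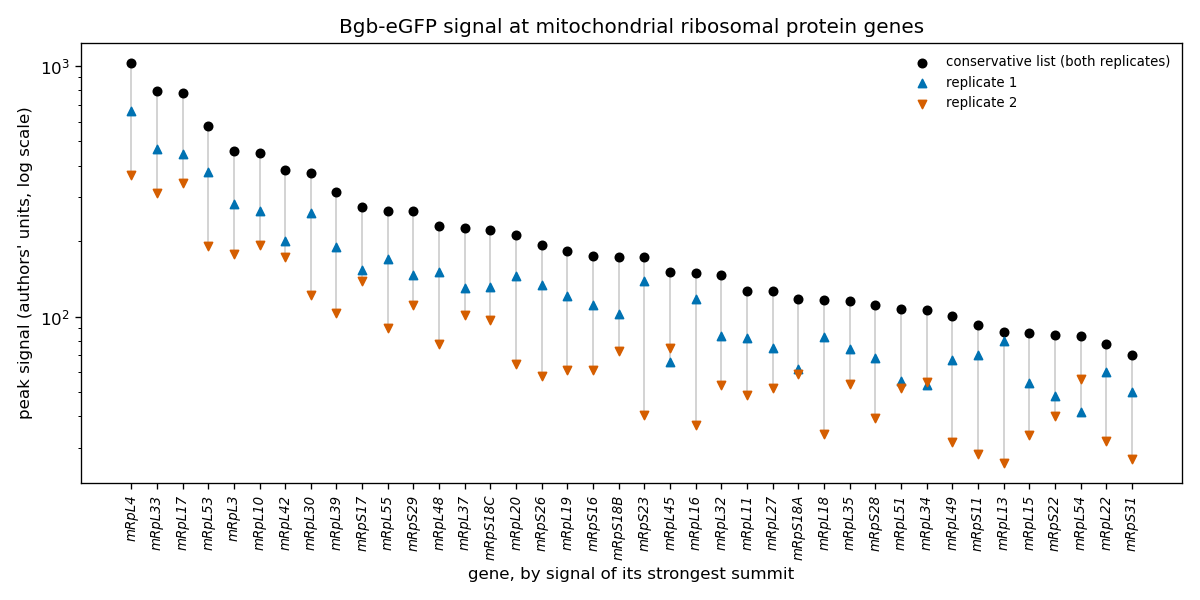
Signal of the strongest summit of each of the 40 genes with a peak (log axis, authors' units), in the conservative list (black), replicate 1 (blue) and replicate 2 (orange). Signals run from 1027 at mRpL4 to 70.1 at mRpS31, and replicate 1 is above replicate 2 at 37 of the 40 genes.

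The other 28 genes with a peak had signals from 70.1 to 229. From the strongest down, mRpL48 (229), mRpL37 (226), mRpS18C (222), mRpL20 (211), mRpS26 (193) and mRpL19 (183) led this group. mRpS16, mRpS23, mRpS18B, mRpL45, mRpL16, mRpL32, mRpL27, mRpL11, mRpS18A, mRpL18, mRpL35, mRpS28, mRpL51, mRpL34 and mRpL49 followed, with signals from 174 down to 100.1. mRpS11, mRpL13, mRpL15, mRpS22, mRpL54, mRpL22 and mRpS31 were the weakest, from 92.7 to 70.1. All 3 paralogs of the S18 family, mRpS18A, mRpS18B and mRpS18C, had a peak, with signals of 117, 173 and 222.

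Replicate 1 gave the higher signal at 37 of the 40 genes. The exceptions were mRpL45 (66.0 and 74.6 in replicates 1 and 2), mRpL34 (53.1 and 54.6) and mRpL54 (41.6 and 56.3). Over the 44 summits in range of these genes, the median log2 ratio of replicate 1 to replicate 2 was 0.66 ± 0.53 (SD across summits), beside 0.70 ± 0.48 over 3765 promoter summits found in both ranked lists. Spearman's rho between the replicates was 0.78 across the 44 summits, which are not independent of each other and passed a filter for agreement. In the peak list of replicate 1 alone, 50 of the genes had a summit in range (68.5%), beside 39.7% of all protein-coding genes. In that of replicate 2 it was 32 (43.8%), beside 26.0%. The list of replicate 1 is the longer, with 6061 peaks beside 3200. Both lists held 31 of the genes, 19 were in that of replicate 1 alone and 1, mRpL9, in that of replicate 2 alone. The same split over all protein-coding genes was not counted. All 31 were among the 40 genes of the conservative list, which also took 8 from replicate 1 alone (mRpL13, mRpL15, mRpL18, mRpL22, mRpL49, mRpL51, mRpS11 and mRpS31). mRpS22 was in the conservative list with signals of 48.4 and 40 but in neither replicate's own list.

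Summits sat just upstream of the start of transcription. Of the 40 strongest summits, 32 were upstream of the gene's TSS and 8 downstream, beside 3751 and 925 over all genes with a peak. The median distance was 47 bp, and 26 of the 40 (65%) were 100 bp or less away, beside 60.5% over all genes with a peak. By the annotation of any protein-coding gene, 25 summits were intergenic and 13 in a 5′ UTR. Another 1 was in an intron, 1 in a 3′ UTR (mRpL27) and 0 in coding sequence. The feature can belong to a neighbour, and the intron summit, that of mRpL53, lay upstream of that gene's TSS. So did several 5′ UTR summits, such as those of mRpL11 and mRpS31. The same shares over all genes were not counted. The 40 strongest summits fell into 2 kinds. In 25 genes the gene itself held the nearest protein-coding TSS, alone or tied, and the summit was at most 120 bp from it (median 28 bp). In 15 genes another gene held the nearest TSS, and the median distance was 331 bp to the own TSS and 46 bp to the nearer one. In 13 of these 15 the nearer gene was the head-to-head neighbour. The median signal was 173 for the first kind and 126 for the second.

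The neighbours of the second kind include HtrA2 and Taz, which have mitochondrial roles. How often neighbours have such roles was not counted, here or over all genes. mRpL11, part of the stalk base, had 126 (82.3 and 48.6), with the summit 45 bp from HtrA2, a protease of the intermembrane space. mRpL18 had 116 (82.9 and 33.9), 59 bp from Taz, the tafazzin that remodels cardiolipin. mRpS18C (222; CG15535), mRpS26 (193; CG13698), mRpS16 (174; cg) and mRpS18A (117; CG31460) had summits 13 to 46 bp from the gene named with each. So did mRpL34 (106; Dg, the dystroglycan gene) and mRpS31 (70.1; hzg), at 46 and 40 bp. mRpS28 (111) was 8 bp from CG5323 and mRpL51 (107) 103 bp from Uba4. For mRpL27 (126) the summit was 716 bp downstream of its TSS and 522 bp from that of RpL27A, a cytosolic ribosomal protein gene.

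**Figure D3:**
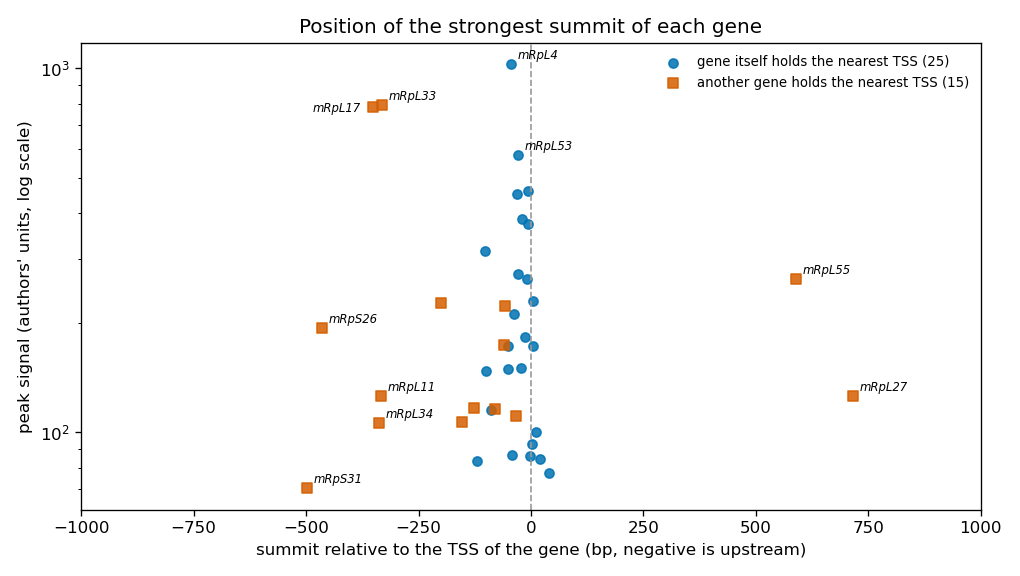
Signal of the strongest summit (log axis, authors' units) of each of the 40 genes against its position relative to the gene's TSS in bp, negative values upstream. Blue circles are the 25 genes that hold the nearest TSS themselves, all within 120 bp, and orange squares are the 15 genes where another gene's TSS is nearer, reaching 716 bp.

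A second conservative summit was in range at 4 genes, mRpS17, mRpL39, mRpL32 and mRpL49. For mRpS17 it had a signal of 131 (80.5 and 79.6), 286 bp upstream. For mRpL32 it had 74.4 (45.3 and 45.8), 658 bp upstream and 40 bp from qless, the head-to-head neighbour. For mRpL49 it had 75.5 (36.6 and 38.3), 600 bp upstream. For mRpL39 it had 61.7, 317 bp upstream and 32 bp from Prosbeta2, a proteasome subunit, and it shares its replicate 2 peak with the first summit. In each case the second summit was nearest to another gene. The summits of mRpL49, mRpL32 and mRpL27 at 600, 658 and 716 bp were those closest to the limit of 1000 bp from inside. Just outside were summits at 1133 bp from mRpS5, 1169 bp from mRpL18 and 1286 bp from mRpS18C. The one at mRpS5 had a signal of 353, and no protein-coding TSS was nearer to it than that of mRpS5.

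The remaining 33 genes had no conservative summit in range. For 32 of them the ranked list held a summit in range, with signals from 26.8 to 867 and a median of 58.8. mRpS5, a small subunit gene, had none. That list has no threshold and holds 101843 peaks, so a summit in it is not a called peak. The share of all protein-coding genes with a ranked summit in range was not counted. The highest signal was at mRpL47, whose product sits by the exit tunnel. Its ranked summit had a signal of 867 (543 and 305), 53 bp upstream of the TSS. The head-to-head neighbour CG8176 starts 99 bp upstream of that TSS, so the summit lay between both starts and slightly nearer to that of CG8176. That signal would place it at rank 91 of the conservative list, and its −log10 IDR was 5, beside at least 2.00 for every peak in that list. No summit was in range of mRpL47 in the conservative list, the second series list or either replicate's own list. In all, 146 ranked peaks with an IDR of 1% or lower were not in the conservative list, 84 of them on 3R, the arm of mRpL47. The reason is not given in the sources used here. Counting ranked summits at that IDR, a choice made after seeing the data, gave 41 of 73 genes (56.2%), beside 34.3% of all protein-coding genes.

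Next were mRpS6 with a ranked signal of 95.2 (85.8 and 21.4), mRpL23 with 75.3 (34.8 and 30.2) and mRpS30 with 74.8 (55.2 and 22.7). mRpS14 had 74.6 (52.0 and 22.6) and mRpL1 68.7 (49.8 and 17.4). mRpL23, another exit tunnel protein, had a −log10 IDR of 1.99, just under the lowest in the conservative list. In the second series list, which is longer at 6393 peaks, 49 genes had a summit in range (67.1%), beside 40.8% of all protein-coding genes. The 9 added genes were mRpL1, mRpL2, mRpL12, mRpL23, mRpL28, mRpS6, mRpS14, mRpS25 and mRpS30. mRpL12 forms the stalk with mRpL10, and had a ranked signal of 68.6 (53.3 and 18.8) beside 451 for mRpL10. A further 18 genes had a summit in none of the 4 lists, namely mRpL14, mRpL21, mRpL24, mRpL36, mRpL41, mRpL43, mRpL44, mRpL47, mRpL52, mRpS2, mRpS5, mRpS7, mRpS9, mRpS10, mRpS24, mRpS33, mRpS34 and mRpS35. mRpL9, mRpL38, mRpL40, mRpL46, mRpL50 and mRpS21 had one in a single replicate's list only.

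The BEAF-32 sequence was the most common of those searched at the summits. CGATAA or CGATAG, on either strand and in the 101 bp centred on the summit, occurred at 21 of the 44 summits (47.7%, 32.5 to 63.3), beside 42.8% of 3788 conservative promoter summits. Windows 500 bp to either side of the 44 held it in 1 of 88 cases (1.14%), beside 526 of 7576 such windows (6.94%) over all promoter summits. TATCGATA occurred at 10 of the 44 (22.7%, 11.5 to 37.8), beside 17.5%, and in 0 of 88 flanking windows, beside 0.568%. GGTCACAC occurred at 3 (6.82%, 1.43 to 18.7), beside 5.02%. Each share over all promoter summits lies inside the interval of the 44. Summits with the BEAF-32 sequence had a median signal of 183 and those without it 116, beside 246 and 117 over all promoter summits. It occurred in 15 of the 25 genes that hold the nearest TSS and in 6 of the 15 others. The sequences shown for mRpL17, mRpL10 and mRpL20 are examples.

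The Runt domain sequence was rare at the summits. AACCACA or AACCGCA, or with G as first letter GACCACA or GACCGCA, on either strand, occurred at 2 of the 44 (4.55%, 0.555 to 15.5), those of mRpL13 and mRpL15, beside 4.99% of all promoter summits and 4.55% of the 88 flanking windows. Over all promoter summits it was in 3.87% of the flanking windows. CGCATGCG, the core of the sequence that Erect wing, the fly counterpart of NRF-1, binds, occurred at 0 of 44 (upper bound 8.04%), beside 0.238%. In mammals NRF-1 is a known activator of nuclear genes for mitochondria.

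The promoters themselves, from 250 bp before to 50 bp after the start of the gene, were searched without using the peaks. CGATAA or CGATAG occurred in 38 of 73 promoters (52.1%, 40 to 63.9), beside 35.1% of all protein-coding genes. It was in 27 of the 40 promoters with a peak (67.5%, 50.9 to 81.4) and in 11 of the 33 without (33.3%, 18.0 to 51.8), beside 57.4% and 23.8% over all genes. TATCGATA was in 13 of the 40 (32.5%, 18.6 to 49.1) and in 2 of the 33, mRpL12 and mRpS25 (6.06%, 0.743 to 20.2), beside 22.7% and 2.63%. GGTCACAC was in 6 of 40 (15.0%) and 2 of 33 (6.06%), beside 11.8% and 5.60%. The Runt domain sequence was in 8 of 40 (20%, 9.05 to 35.6) and 6 of 33 (18.2%, 6.98 to 35.5), beside 11.3% and 11.5%. CGCATGCG was in 0 of the 73 (upper bound 4.93%), beside 0.623% of all protein-coding genes. The BEAF-32 and DREF sequences were thus about as unevenly divided between genes with and without a peak as over all genes, while the intervals for the Runt domain sequence overlap over most of their length. The promoter shares were not split by head-to-head neighbour, which 79.5% of these genes and 36.2% of all genes have. These matches are letters in a window and do not show that a factor binds there.

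**Figure D4:**
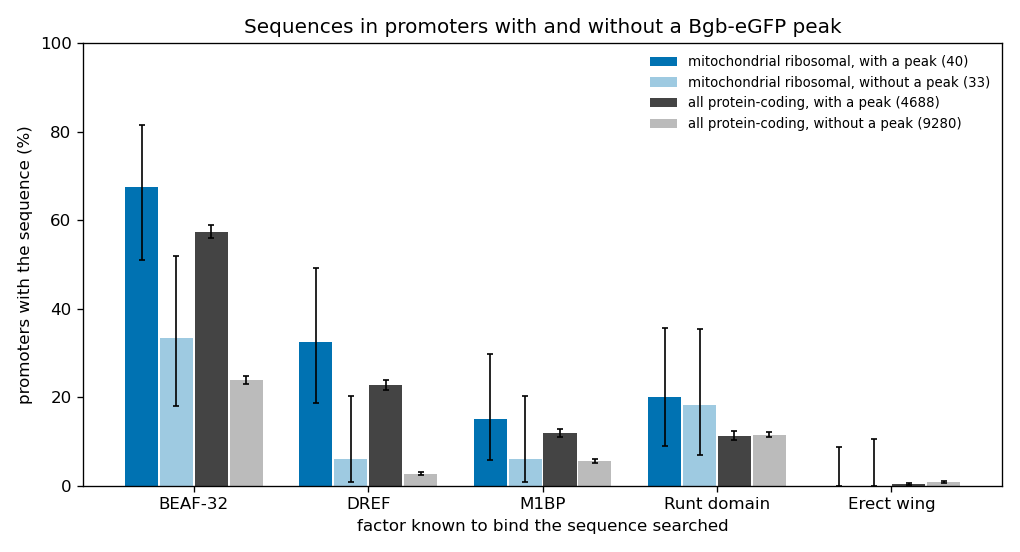
Share of promoters, in percent with exact 95% binomial intervals, that hold the sequence of each factor, for genes with and without a conservative peak. The BEAF-32 sequence is in 67.5% and 33.3% of the mitochondrial ribosomal promoters with and without a peak, beside 57.4% and 23.8% of all protein-coding promoters.

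Other genes of mitochondrial gene expression were read from a list of 25 named genes and the 15 mitochondrial aminoacyl-tRNA synthetase genes whose symbol ends in RS-m. The named genes also include ewg and Dref, which encode the nuclear factors Erect wing and DREF. A peak was found at 20 of these 40 (50%, 33.8 to 66.2), beside 33.6% of all protein-coding genes, with a median signal of 228. The peaks were unevenly spread. Of the 15 synthetase genes only AspRS-m (334), LeuRS-m (169), AlaRS-m (96.8) and PheRS-m (93.4) had one, and the others were at the named genes. The 5 strongest were mtSSB, the single-stranded DNA-binding protein of the mitochondrial genome, with 899 (589 and 314), ewg with 843 (505 and 336), tko with 718 (454 and 273), mRF1 with 640.1 (415 and 239.6) and bsf with 486 (275 and 201). tko and bonsai encode the mitochondrial ribosomal proteins S12 and S15 and fall outside the symbol rule, and bonsai had 228 (134 and 94.2). Their summits were 32 and 10 bp from their own TSS. Among elongation factors, mEFTs had 425 and mEFG1 228, while mEFTu1 and mEFTu2 had no conservative summit. Of the transcription apparatus, PolrMT, the mitochondrial RNA polymerase, had 74.1, and TFAM had no conservative summit. Dref, which encodes DREF, had 224 (125 and 86.9).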

How the data were processed

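ChIP-seq peak lists of 2 replicates on dm6 were used as deposited, and the labels' replicate numbers were kept. The signal per peak is the authors' deposited value, with no scaling between libraries stated. The −log10 IDR of the ranked series list was used as deposited. No source used here names the aligner, the peak caller or a filter between the ranked and thresholded lists.

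TSSs were the 5′ ends of all transcripts in Ensembl release 115. A replicate's signal was that of its strongest ranked peak overlapping the conservative peak. Shares have exact 95% binomial intervals. Motifs were sought 50 bp either side of the summit. The distance, motif and interval code was checked on simulated data. Tables were handled in pandas 2.3.3, intervals came from scipy 1.17.1 and plots from matplotlib 3.10.9, all under Python 3.11.15.

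The genes, lists and sequences were chosen with earlier results of these data known. Values were given in full for the 12 strongest genes, those with a second summit, those whose summit was nearest to another gene, the 6 strongest without a conservative summit and the summits around the 1000 bp limit. The result for 1 neighbouring gene is not reported here. Other lists, windows and TSS rules were tried; ranked summits at an IDR of 1% and the split by head-to-head neighbour were added after seeing the data.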

Additional observations from a re-analysis of the deposited data

How the results depend on the processing

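Across 83 alternatives to 11 results, 71 stayed within 1.5 times the count, inside the interval of the share or within the SD between replicate medians. With the stronger 50% of peaks, the genes with a peak numbered 24, of which 17 were mRpL and 7 mRpS, beside 41 cytosolic ribosomal protein genes and 2864 of all genes. With only the nearest protein-coding TSS they numbered 25, of which 6 were mRpS. Leaving out a replicate gave 32 without replicate 1 and 50 without replicate 2. TSS windows of 250 to 2000 bp gave 32 to 44 (43.8% to 60.3%), beside 27% to 38.4% of all protein-coding genes. The median signal was 126 in the second series list, and 73.8 without replicate 1 and 82.6 without replicate 2, on the scale of a single library. CGATAA or CGATAG stood at 65.9% (29 of 44) with 100 bp either side of the summit, a wider window that can only raise the share. The Runt domain sequence stood at 0% without replicate 1 (0 of 33 summits) and 3.51% without replicate 2. The matching shares over all promoter summits were not counted for these settings. No paired analysis was possible because there is 1 group. Depth is unknown, and counts of 73 genes leave wide intervals.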

Other observations

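By chromosome arm, a conservative summit was in range of 8 of 12 mitochondrial ribosomal protein genes on 2L, 9 of 12 on 2R, 6 of 17 on 3L, 11 of 21 on 3R and 6 of 11 on X. The shares of all protein-coding genes on these arms were 31.6%, 35.2%, 32.6%, 32.4% and 37.6%, in that order. The 3L genes stood at 35.3% (14.2 to 61.7) and the 2R genes at 75% (42.8 to 94.5), with intervals that overlap. Of the 6 genes on 3L, 2 had their summit 100 bp or less from the TSS, beside 57.6% of all genes with a peak on 3L. The median distance was 227 bp, beside 72 bp over all genes with a peak on that arm.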
